A study of Rattus norvegicus with 30 samples.

Results

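The genes described here encode the proteasome, the protease complex that degrades ubiquitin-tagged proteins in the cytoplasm and nucleus of every cell, together with its activators, its inhibitor and the chaperones that build it. They were chosen by name only: every probe set whose single gene symbol begins with Psm, a letter from a to g and a number was taken, and each gene was represented by its brightest probe set over the 30 arrays. The rule found 60 probe sets of 46 genes, among 14217 genes with a single-symbol probe set. Of the 46 genes, 44 encode proteasome proteins, and all counts below are over these 44. The other 2, Psmc3ip and Psme3ip1, match the pattern but encode no subunit. All 46 lay above the filter on low signal, which kept the brighter 18625 of 31042 probe sets. The 44 genes comprise 7 of the core alpha ring, 6 of the core beta ring, 3 inducible core subunits, 6 regulatory ATPases, 11 regulatory non-ATPase subunits, 7 assembly chaperones, and 4 activators or inhibitors. Psmb6 and Psme3 share their probe sets with other symbols and were not analysed here.

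The cells were frozen primary hepatocytes of male Sprague Dawley rats, thawed onto collagen-coated plates, overlaid with Matrigel and dosed on culture day 3. They received the vehicle DMSO (at 1%, also present in every clofibrate culture), 60 uM clofibrate or 1000 uM clofibrate, for 24 or 48 h. Clofibrate, a lipid-lowering fibrate, is an agonist of the nuclear receptor PPAR-alpha. Each of the 6 groups held 5 separate cultures with 1 Affymetrix array each. The labels do not say that the cultures came from different animals, so the p-values reflect differences between cultures only, and precision is set by how many arrays there were. Correlations between arrays of a group were at least 0.964. The culture DMSO 48 h replicate 1 had the largest residual SD (0.336). Group means of the 3'/5' ratio, a sign of RNA quality, were 2.33 to 2.56 for actin and 1.14 to 1.18 for GAPDH. Actin was highest at 1000 uM, at 2.56 ± 0.15 (SD) at 24 h and 2.48 ± 0.17 at 48 h. In DMSO it was 2.42 ± 0.14 and 2.33 ± 0.15. GAPDH was lowest at 1000 uM, at 1.15 ± 0.02 and 1.14 ± 0.02, beside 1.17 ± 0.03 and 1.18 ± 0.02 in DMSO. The part of RNA quality in the results below was not tested. Summed signals of 5 hepatocyte markers lay between 275318 and 354260, and none of the 5 was near background in any group.

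The proteasome core is a barrel of stacked rings in which the outer alpha rings gate entry and the inner beta rings carry the proteolytic sites. A regulatory particle of ATPase and non-ATPase subunits binds ubiquitinated proteins, removes the ubiquitin and threads the unfolded chain into the core. In cells exposed to interferon, 3 inducible beta subunits (Psmb8, Psmb9 and Psmb10) take the places of Psmb5, Psmb6 and Psmb7 to form the immunoproteasome, which favours peptides for antigen presentation. The subunit genes are known to be induced together by the transcription factor Nfe2l1 when proteasome activity falls.

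Values are MAS5 signals, which depend on the probes, so levels are compared between groups for 1 probe set and never between genes. Differences are log2 changes with limma's standard error (SE), and a change is called where its Benjamini-Hochberg adjusted p, over all 18625 probe sets, is under 0.05. In bulk RNA, fewer cells of a type and less RNA per cell cannot be told apart.

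At 1000 uM clofibrate most proteasome genes had small positive differences from DMSO. The log2 changes at 48 h ran between -0.58 (Psmb10) and 0.64 (Psmg1). At 24 h, 21 of the 44 rose and 3 fell, against a background of 11.5% of all probe sets called higher and 17.4% called lower. At 48 h, 16 rose and 5 fell, against 15.2% higher and 22.7% lower. With spike-in scaling the split was 34 higher and 0 lower at 24 h, against 23.6% and 4.85% of all probe sets. At 48 h it was 21 higher and 2 lower, against 19.8% and 10%. With median centring it was 21 higher and 3 lower at 48 h, against 18.7% and 17.8%. In MAS5 signals the members' shares were 47.7% higher and 6.82% lower at 24 h, and 36.4% higher and 11.4% lower at 48 h. At an unadjusted p under 0.05 the counts were 22 higher and 3 lower at 24 h, and 18 higher and 5 lower at 48 h. The share of all probe sets at an unadjusted p was not computed, so such counts, here and below, have no background beside them. The median log2 change of the 44 genes was 0.12 at 24 h and 0.08 at 48 h, beside -0.05 and -0.04 over all probe sets. In the same cultures some cell type markers were lower. At 24 h, 3 of 5 hepatocyte markers fell, Serpina1 by 0.20 ± 0.05, Apoa1 by 0.18 ± 0.07 and Ttr by 0.15 ± 0.06. Among 3 stellate markers 1 was lower, Acta2, by 0.56 ± 0.13. For bile duct cells, 1 of 3 markers on the array lay above the filter, Epcam, which was lower by 0.44 ± 0.05. Its companion Krt7 was below the floor set by bacterial controls in every group, and Krt19 at 1000 uM at 48 h. Epcam alone thus stands for these cells. At 48 h Serpina1 fell by 0.25 ± 0.05, Epcam by 0.43 ± 0.05 and Acta2 by 0.49 ± 0.13. The endothelial marker Pecam1, 1 of 2 tested, rose by 0.70 ± 0.26. Serpina1 was the only 1 of 5 hepatocyte markers called at 48 h, and their median change was -0.01. The median was 0.29 over the 3 stellate markers and 0.25 over the 2 endothelial markers. The other markers of these 2 types changed in the opposite direction to Acta2 and Pecam1 and were not called. The part of these cells in the proteasome result was not tested. Proteasome genes are bright, and bright probe sets are called more often. Of the 2295 probe sets at or above the members' lower quartile of brightness, 26.9% were called higher and 28% lower at 24 h, and 33% higher and 34% lower at 48 h. The 33 members in that range gave 19 higher and 1 lower at 24 h, and 15 higher and 1 lower at 48 h. The share called higher among bright members thus exceeded that of bright probe sets at both times, and the share called lower was below it. That cutoff leaves out most members that were called lower, because they are dimmer. These are Psmb10 and Psmg2 at 24 h, and Psmb10, Psmg2, Psmb8 and Psma3 at 48 h. The low share called lower among bright members therefore does not describe all 44. The 5 cultures at 1000 uM all lay above the 5 DMSO cultures for 12 genes at 24 h and 14 at 48 h (background 8.87% and 11.2%), and all below for 2 at each time (background 12.7% and 15.5%).

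At 60 uM few genes were called. At 24 h, 2 of 44 rose (Psma1 and Psmd4) and 0 fell, against a background of 3.43% higher and 3.14% lower. At 48 h, 3 rose (Psma1, Psmb5 and Psmb7) and 0 fell, against 4.62% and 4.43%. Both counts are near the background in the main fit of MAS5 signals, but the 24 h count depends on the scaling and the fit. With median centring 8 of 44 rose at 24 h, against 4.39% of all probe sets, and with spike-in scaling 1 rose, against 3.72%. A fit with a replicate block of the title numbers, described below, gave 5 higher at 24 h, against 3.65%. Among bright probe sets, 13.6% were called higher at 24 h and 16% at 48 h. Of the 33 bright members, 1 was called higher at 24 h and 3 at 48 h, which are smaller shares. Over all 44 genes the shares were 4.55% and 6.82%. At an unadjusted p under 0.05, limma gave 17 higher and 0 lower at 24 h, and 10 higher and 1 lower (Psmg2) at 48 h, with no background computed. The log2 change was above 0 for 33 of 44 genes at 24 h and 29 of 44 at 48 h. The medians were 0.07 and 0.03, beside -0.03 and -0.0044 over all probe sets. Without the culture DMSO 48 h replicate 1, 0 of 44 genes passed at 60 uM at 48 h.

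**Figure D1:**
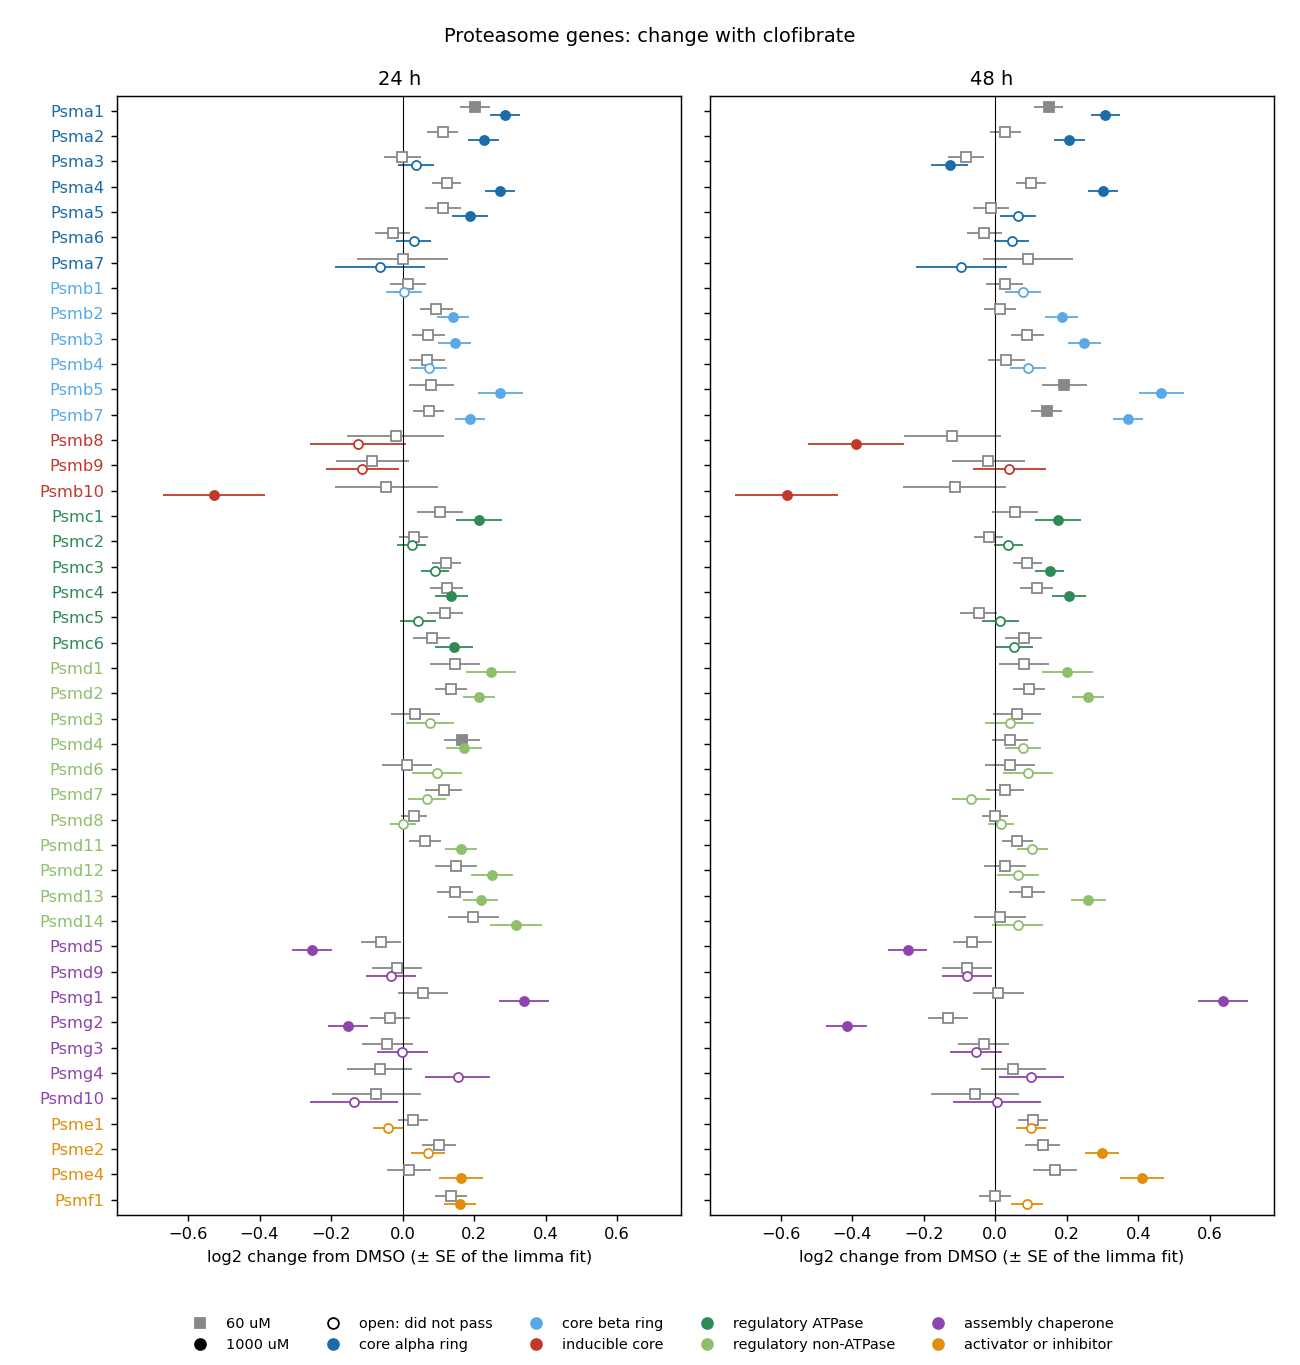
Log2 change from DMSO (horizontal axis, ± SE of the limma fit) for each of the 44 proteasome genes at 24 h (left) and 48 h (right). Grey squares are 60 uM and coloured circles 1000 uM clofibrate, coloured by class, and filled symbols passed at an adjusted p under 0.05. At 1000 uM, 21 genes rose and 3 fell at 24 h, and 16 rose and 5 fell at 48 h, with Psmg1 the highest and Psmb10 the lowest at both times.

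**Figure D2:**
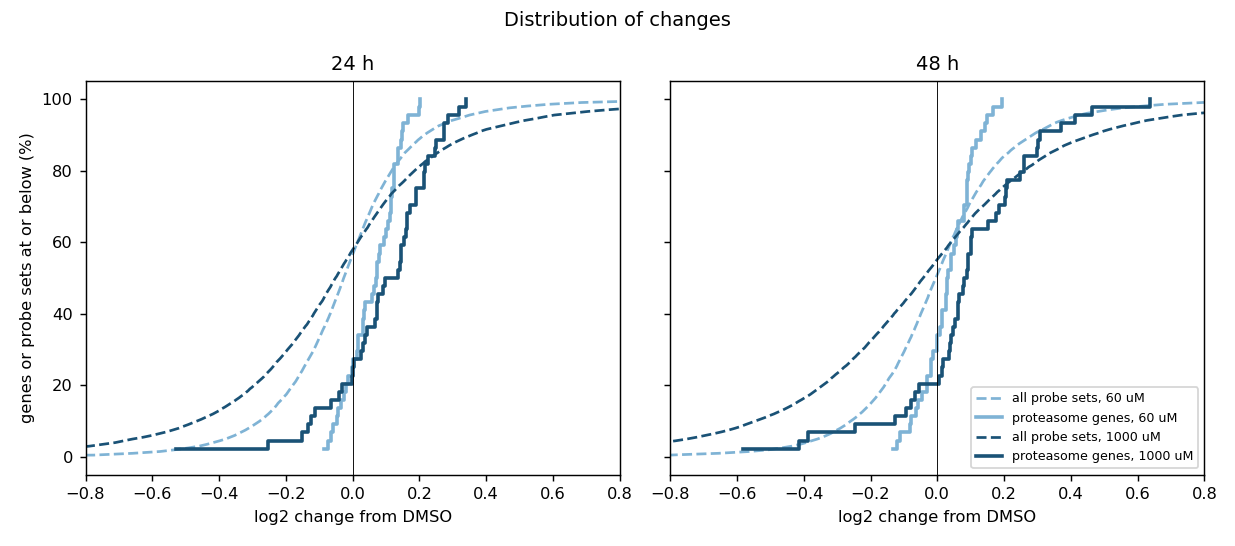
Share of genes or probe sets at or below each log2 change from DMSO, at 24 h (left) and 48 h (right). Solid steps are the 44 proteasome genes and dashed lines all 18625 probe sets tested, pale for 60 uM and dark for 1000 uM clofibrate. At 1000 uM the proteasome genes have medians of 0.12 and 0.08, beside -0.05 and -0.04 for all probe sets, and a narrower spread.

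In the core alpha ring, 4 of 7 genes rose at 1000 uM at 24 h and 0 fell, and 3 rose and 1 fell at 48 h. Psma1, an alpha ring subunit, was the only gene called at both doses and both times, although its call at 60 uM at 48 h was lost under 5 of 17 alternatives (7 other ways of processing and 10 with 1 array left out), spike-in scaling and quantile normalization among them. Its signals at 24 h were 21458, 21986, 22039, 22182 and 22437 in DMSO, 25585, 26288, 25880.5, 24907 and 24086 at 60 uM, and 28535, 27183, 25864, 26244 and 26459.8 at 1000 uM. The DMSO cultures lay below every clofibrate culture, and the ranges of the clofibrate doses overlapped. The log2 change was 0.20 ± 0.04 (adjusted p = 0.0012) at 60 uM and 0.29 ± 0.04 (adjusted p = 1.27e-06) at 1000 uM. At 48 h the signals were 20303, 22316, 21576, 19744 and 22161 in DMSO, 24318, 24159.5, 21458, 24255 and 23449.6 at 60 uM, and 27549, 26008, 25779, 27528 and 24480.0 at 1000 uM. Here the 1000 uM cultures lay above all others, and the 60 uM cultures overlapped those in DMSO. The change was 0.15 ± 0.04 (adjusted p = 0.0165) at 60 uM and 0.31 ± 0.04 (adjusted p = 2.2e-07) at 1000 uM. Psma4 rose by 0.27 ± 0.04 at 24 h and 0.30 ± 0.04 at 48 h, and Psma2 by 0.23 ± 0.04 and 0.21 ± 0.04, with no overlap between 1000 uM and DMSO at either time. Psma5 rose at 24 h only, by 0.19 ± 0.05 (adjusted p = 0.0039), with a change of 0.06 ± 0.05 (adjusted p = 0.351) at 48 h. Psma3 was called lower at 48 h at -0.13 ± 0.05 (adjusted p = 0.0485), although its groups overlapped. That call was kept under 4 of 17 alternatives only: median centring, quantile normalization, no filter and single arrays left out also ended it, and with spike-in scaling the value turned to 0.02. Psma6 and Psma7 were not called at either time.

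In the constitutive beta ring, 4 of 6 genes rose at 1000 uM at both 24 and 48 h and 0 fell: Psmb2, Psmb3, Psmb5 and Psmb7. Psmb5 carries the chymotrypsin-like site and Psmb7 the trypsin-like site. Psmb7 signals at 48 h were 11308, 12180.3, 12123, 11781 and 12357 in DMSO, 13998, 13299, 13440.0, 12393 and 12888 at 60 uM, and 15547, 15816, 15843, 15831 and 14298 at 1000 uM. All 1000 uM cultures lay above all 60 uM cultures, which in turn lay above all DMSO cultures. The log2 change was 0.14 ± 0.04 (adjusted p = 0.0263) at 60 uM and 0.37 ± 0.04 (adjusted p = 9.47e-09) at 1000 uM, which is 1.29-fold. At 24 h its signals were 11974, 12608, 13369.5, 12881 and 13226 in DMSO, 14493, 13499.5, 12975, 13442 and 12960.3 at 60 uM, and 14337, 14889, 15554, 14375 and 13868 at 1000 uM, and the 1000 uM cultures were again all above DMSO, with a change of 0.19 ± 0.04 (adjusted p = 0.000688). Psmb5 signals at 48 h were 20206, 23664, 23062, 24965 and 24342 in DMSO, 30770.5, 27355, 26253, 23602 and 25090.1 at 60 uM, and 32663, 32383, 32864, 30996 and 31038 at 1000 uM. The 1000 uM cultures lay above every other culture and close together, while the 60 uM and DMSO ranges overlapped. The change was 0.19 ± 0.06 (adjusted p = 0.0496) at 60 uM and 0.46 ± 0.06 (adjusted p = 2.85e-07) at 1000 uM (1.38-fold). The calls at 60 uM were lost under 13 of 17 alternatives for Psmb5, every scaling included, and 7 of 17 for Psmb7, spike-in scaling included. At 24 h Psmb5 signals were 33512, 28080.0, 31515, 28423 and 30623 at 1000 uM, against 22386, 26827, 28142, 23794 and 24923 in DMSO, with overlap and a change of 0.27 ± 0.06 (adjusted p = 0.000948). Another Psmb5 probe set above the filter was not called, with changes of -0.12 ± 0.49 at 24 h and 0.70 ± 0.49 at 48 h, and averaging the probe sets ended the 24 h call (adjusted p = 0.394). Psmb3 rose by 0.15 ± 0.05 at 24 h and 0.25 ± 0.05 at 48 h, and Psmb2 by 0.14 ± 0.05 and 0.19 ± 0.05. Psmb1 and Psmb4 were not called, with changes of 0.08 ± 0.05 and 0.09 ± 0.05 at 48 h.

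Of the 3 inducible core subunits, which replace constitutive beta subunits in the immunoproteasome, 0 rose and 1 fell at 24 h, and 0 rose and 2 fell at 48 h. Psmb10 takes the place of Psmb7. Its signals at 24 h were 1208, 1321, 1538, 1207 and 1400.2 in DMSO, 1399.6, 1353, 1026, 1329 and 1371 at 60 uM, and 1056, 939, 1038, 720.2 and 899.5 at 1000 uM. All 1000 uM cultures lay below all DMSO cultures, and the log2 change was -0.53 ± 0.14 (adjusted p = 0.00472), or 1.44-fold lower. At 48 h they were 2197, 1507, 1842, 1683 and 1166 in DMSO, 1800.5, 1225, 1706, 1255 and 1715 at 60 uM, and 1282, 1239.6, 895, 948 and 1177 at 1000 uM. The groups overlapped through 1 low DMSO culture, and the change was -0.58 ± 0.14 (adjusted p = 0.00139), or 1.5-fold lower. At 60 uM its changes were -0.05 ± 0.14 (adjusted p = 0.925) at 24 h and -0.11 ± 0.14 (adjusted p = 0.747) at 48 h. The mean at 1000 uM was also lower than that at 60 uM, by 0.48 ± 0.14 (adjusted p = 0.0156) at 24 h and 0.47 ± 0.14 (adjusted p = 0.0138) at 48 h. With the arrays scaled to the poly-A spike-in controls, the 24 h call was lost (-0.29, adjusted p = 0.134).

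Psmb8 takes the place of Psmb5. At 48 h its signals were 2458, 3571, 2800.0, 2324 and 2330.3 in DMSO, 2295, 2590.2, 2486, 2220.2 and 2678 at 60 uM, and 1996, 1976, 2389, 2069 and 1775 at 1000 uM. They overlapped between groups, and the log2 change at 1000 uM was -0.39 ± 0.13 (adjusted p = 0.0216). This call ended with median centring (adjusted p = 0.055), quantile normalization (0.0665) and spike-in scaling (0.263), and without DMSO 48 h replicate 2 (0.1) or 1000 uM 48 h replicate 5 (0.0628). At 24 h Psmb8 signals were 2240.2, 3113, 2249, 2901 and 2120.1 at 1000 uM, against 2454, 2404, 3471, 2651 and 2739.9 in DMSO, with a change of -0.12 ± 0.13 (adjusted p = 0.556). Psmb9, which takes the place of Psmb6, had signals at 48 h of 3283, 3795, 4514, 3206 and 3478 in DMSO, 4009.5, 3051, 3616, 3799.8 and 3488 at 60 uM, and 4478, 3513, 3467, 3455 and 3814 at 1000 uM. These ranges overlapped throughout. At 24 h they were 3319, 3472, 4235, 3206 and 3886 in DMSO, 4144, 3535, 3753, 2776 and 2971 at 60 uM, and 3465, 3336, 3119, 3658 and 3125 at 1000 uM. Its change at 1000 uM was -0.11 ± 0.10 (adjusted p = 0.473) at 24 h and 0.04 ± 0.10 (adjusted p = 0.806) at 48 h, with 95% intervals of -0.32 to 0.10 and -0.17 to 0.25.

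**Figure D3:**
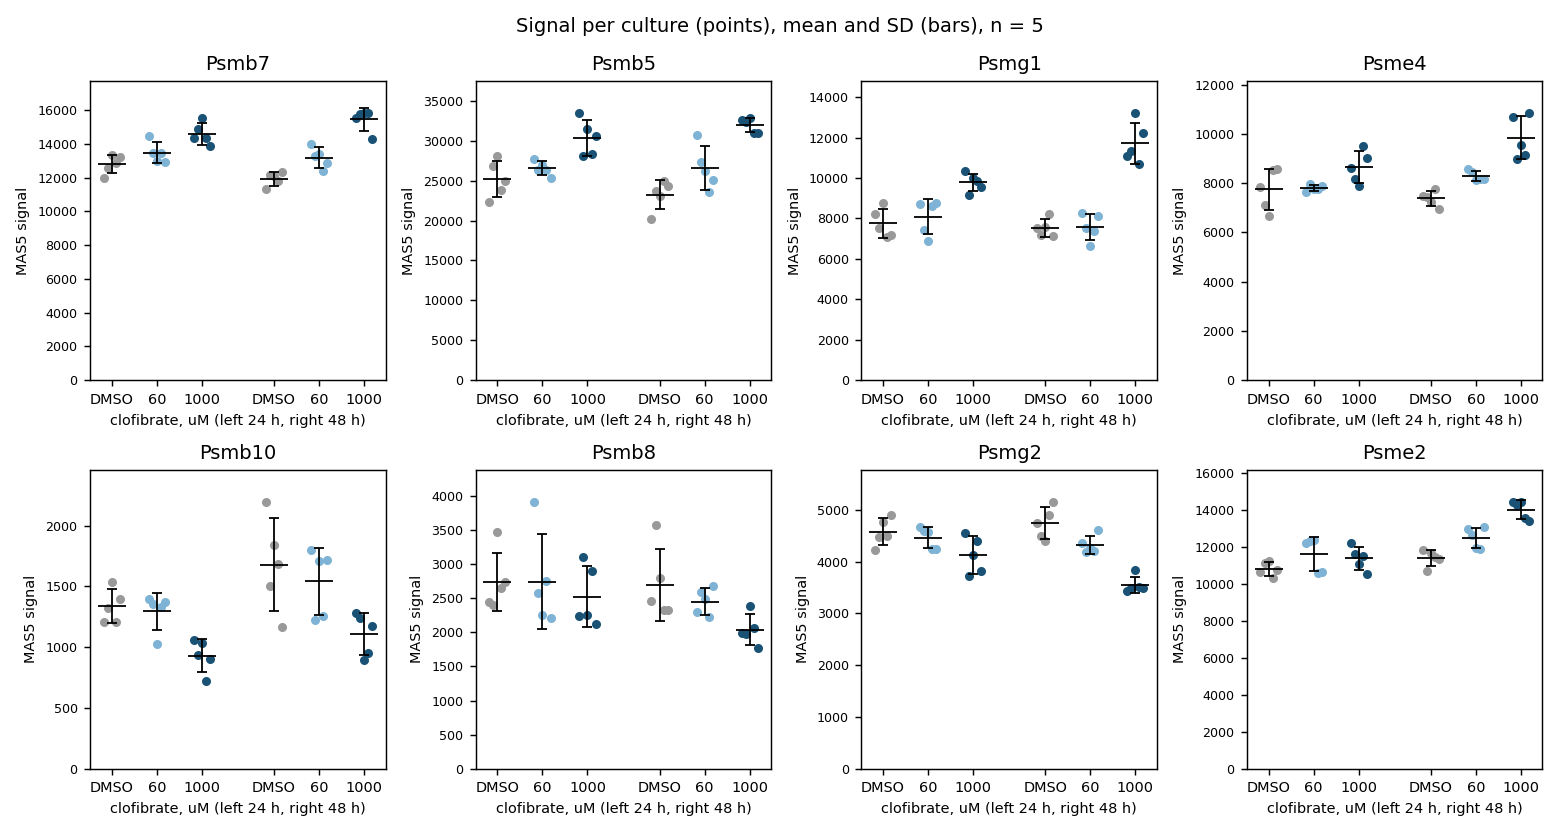
MAS5 signal (vertical axis, linear, from 0) of each culture for 8 proteasome genes, in DMSO, 60 uM and 1000 uM clofibrate at 24 h (left of each panel) and 48 h (right). Points are cultures, and bars the mean and SD (n = 5). At 48 h the 1000 uM cultures lie above all DMSO cultures for Psmb7, Psmb5, Psmg1, Psme4 and Psme2, and below all for Psmg2, while Psmb10 and Psmb8 overlap.

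The pairs Psmb7 and Psmb10 and Psmb5 and Psmb8 moved in opposite directions at 1000 uM at 48 h, so their promoters are shown, with that of Psme2, an interferon-inducible activator subunit that rose. Each is RefSeq sequence on GRCr8, 250 bases before to 50 after the annotated start, read 5′ to 3′ on the gene's strand, which is minus for all 5. Capitals mark matches, on either strand, to the CCAAT box (CCAAT, or ATTGG when read on the other strand), an interferon-stimulated response element core (GAAA, any 2 bases, then GAAA) or an antioxidant response element core (TGACNNNGC).
Psmb7, chr3:42827421-42827720: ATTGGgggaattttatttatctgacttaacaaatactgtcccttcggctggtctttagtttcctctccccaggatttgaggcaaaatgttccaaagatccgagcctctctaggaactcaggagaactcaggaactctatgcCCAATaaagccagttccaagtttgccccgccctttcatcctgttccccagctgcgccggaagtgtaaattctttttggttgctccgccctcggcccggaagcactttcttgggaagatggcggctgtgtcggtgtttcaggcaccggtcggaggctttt
Psmb10, chr19:50743243-50743542: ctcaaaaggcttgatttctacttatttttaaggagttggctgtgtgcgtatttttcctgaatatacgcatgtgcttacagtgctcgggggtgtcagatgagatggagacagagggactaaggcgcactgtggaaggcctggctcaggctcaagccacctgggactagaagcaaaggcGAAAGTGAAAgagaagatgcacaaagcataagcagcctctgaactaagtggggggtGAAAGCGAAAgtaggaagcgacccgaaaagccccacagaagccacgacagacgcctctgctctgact
Psmb5, chr15:32047330-32047629: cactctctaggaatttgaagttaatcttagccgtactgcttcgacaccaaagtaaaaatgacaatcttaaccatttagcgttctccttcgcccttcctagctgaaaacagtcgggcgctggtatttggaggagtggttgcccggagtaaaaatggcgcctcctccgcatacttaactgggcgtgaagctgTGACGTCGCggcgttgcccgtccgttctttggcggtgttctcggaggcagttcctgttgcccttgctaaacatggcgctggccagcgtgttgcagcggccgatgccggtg
Psmb8, chr20:4656982-4657281: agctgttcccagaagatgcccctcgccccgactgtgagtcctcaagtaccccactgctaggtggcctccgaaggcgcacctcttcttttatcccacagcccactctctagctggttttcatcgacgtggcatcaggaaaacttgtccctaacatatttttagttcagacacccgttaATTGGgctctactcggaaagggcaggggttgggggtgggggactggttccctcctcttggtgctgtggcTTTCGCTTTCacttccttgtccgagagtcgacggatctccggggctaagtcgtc
Psme2, chr15:33052702-33053001: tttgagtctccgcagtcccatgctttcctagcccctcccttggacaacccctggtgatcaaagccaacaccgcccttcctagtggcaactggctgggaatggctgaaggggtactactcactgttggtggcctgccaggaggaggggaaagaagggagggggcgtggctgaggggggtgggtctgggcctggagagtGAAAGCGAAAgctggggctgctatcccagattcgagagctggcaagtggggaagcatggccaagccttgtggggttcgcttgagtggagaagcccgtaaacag
The Psmb10 window holds 2 interferon-type cores, the Psmb8 and Psme2 windows 1 each, and the Psmb7 and Psmb5 windows none. RefSeq promoter entries were found for 40 of the 44 genes. The interferon-type core occurs in 7 of these 40 (17.5%), against 3.92% of all 33469 rat promoters of this length. Its holders are Psma4, Psmb3, Psmb8, Psmb10, Psmd7, Psmg4 and Psme2, of which Psma4, Psmb3 and Psme2 rose at 48 h and Psmb8 and Psmb10 fell, with Psmd7 and Psmg4 not called. The CCAAT box occurs in 20 of 40 (50%) against 37.5%, and the antioxidant-type core in 7 of 40 (17.5%) against 12.1%. A direct repeat of AGGNCA with 1 base between the copies, the kind of element PPAR-alpha binds, occurs in 0 of 40, against 0.415%. A match this rare is unlikely in any 40 promoters, so the 0 cannot set these promoters apart from others. These are letter matches in a short window and do not show binding.

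Genes that act with the immunoproteasome in antigen presentation were set beside Psmb8 and Psmb10. Of 6 such genes tested, 0 rose and 2 fell at 1000 uM at 24 h, and 0 rose and 1 fell at 48 h, where 17.4% and 22.7% of all probe sets fell. The 48 h count is near that background. Tap1, a subunit of the peptide transporter, had mean signals at 48 h of 1080.5 ± 88.5 in DMSO, 766 ± 96 at 60 uM and 457 ± 115 at 1000 uM (SD, n = 5 each). It fell by 0.46 ± 0.13 (adjusted p = 0.0233) at 60 uM and 0.75 ± 0.13 (adjusted p = 2.58e-05) at 1000 uM at 24 h, and by 0.50 ± 0.13 (adjusted p = 0.00982) and 1.27 ± 0.13 (adjusted p = 9.51e-10) at 48 h. Tap1 and Psmb9 lie next to each other in the genome, and Psmb9 was not called. Tapbp, the tapasin chaperone, fell by 0.25 ± 0.07 (adjusted p = 0.00824) at 24 h. B2m, Irf1, Nlrc5 and Tap2 were not called. Immune cells also use these genes. The summed signal of 7 Kupffer cell markers (the macrophages of the liver) was 10309 to 12057 in DMSO, 8886 to 9848 at 60 uM and 7341 to 9721 at 1000 uM at 24 h, and 9520 to 10747, 7760 to 9000.0 and 6591 to 7389 in the same order at 48 h. Of its 4 markers above the filter, Lyz2 fell (-0.59 ± 0.08 at 24 h, -0.85 ± 0.08 at 48 h), and Cd68, Clec4f and Csf1r were not called. Lyz2 carries most of the summed signal. At 48 h the other 3 differed in the opposite direction, at 0.16 ± 0.12 for Cd68, 0.38 ± 0.38 for Clec4f and 0.29 ± 0.20 for Csf1r. The defining macrophage marker Adgre1 lay below the bacterial control floor in 4 of the 6 groups. The summed signal of 5 lymphoid markers was 602 to 1646 over all arrays, with 1 of the 5 above the filter. The part of these cells in the Psmb8 and Psmb10 results was not tested.

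The 6 regulatory ATPases form the ring that unfolds substrates, and 3 of 6 rose at each time at 1000 uM with 0 falling. Psmc1 rose by 0.21 ± 0.06 (adjusted p = 0.0107) at 24 h and 0.17 ± 0.06 (adjusted p = 0.0316) at 48 h. Psmc4 rose by 0.14 ± 0.05 and 0.21 ± 0.05. Psmc6 was called at 24 h only, at 0.14 ± 0.05, and Psmc3 at 48 h only, at 0.15 ± 0.04. The Psmc6 call was lost under 11 of 17 alternatives, quantile normalization and no filter among them, and its other probe sets read 0.34 ± 0.11 (called) and 0.03 ± 0.15 at 24 h. The calls of Psmc4 at 24 h and Psmc1 at 48 h were each lost under 6 of 17, and Psmc4 at 48 h turned to -0.21 with its probe sets averaged. Psmc2 and Psmc5 were not called, with changes of at most 0.04 in size at either time.

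Of the 11 non-ATPase subunits, 7 rose at 24 h and 3 at 48 h at 1000 uM, and 0 fell. The scaffold subunits Psmd1 and Psmd2 rose at both times, Psmd1 by 0.25 ± 0.07 and 0.20 ± 0.07 and Psmd2 by 0.21 ± 0.05 and 0.26 ± 0.05, as did Psmd13 by 0.22 ± 0.05 and 0.26 ± 0.05. Psmd14 is the deubiquitinase that removes ubiquitin chains as the substrate enters. Its signals at 24 h were 12267, 12329.8, 15151, 13559 and 15013 in DMSO, 18307, 15040.0, 14044, 15569.7 and 15388 at 60 uM, and 16503, 15693, 18735, 17251 and 16784 at 1000 uM. All 1000 uM cultures were above DMSO, with a change of 0.32 ± 0.07 (adjusted p = 0.000828). At 48 h the signals were 13908, 13579, 14687, 15929 and 12888 at 1000 uM, against 13216, 13383, 15626, 13126 and 12649 in DMSO, the ranges overlapped, and the change was 0.06 ± 0.07 (adjusted p = 0.545). The other Psmd14 probe sets read 0.02 ± 0.07 and 0.14 ± 0.06 at 24 h and were not called, so this rise rests on 1 of 3 probe sets. Psmd4, a ubiquitin receptor, read at 24 h 5322, 5394, 6239.9, 5529 and 5712 in DMSO, 6189, 6891, 6355, 6053 and 6116 at 60 uM, and 6465, 6237, 6939, 6228 and 5874 at 1000 uM. Both clofibrate ranges reached above the DMSO range and overlapped it, with changes of 0.17 ± 0.05 (adjusted p = 0.0407) at 60 uM and 0.17 ± 0.05 (adjusted p = 0.00879) at 1000 uM. The call at 60 uM was lost under 10 of 17 alternatives, among them spike-in scaling, no filter and 7 single arrays left out. At 48 h its change at 1000 uM was 0.08 ± 0.05 (adjusted p = 0.232). Psmd11 (0.16 ± 0.04) and Psmd12 (0.25 ± 0.06) rose at 24 h. For Psmd11 a further probe set was called at both times, by 0.30 ± 0.05 and 0.24 ± 0.05. With all its probe sets averaged, one below the filter among them, the 24 h change of Psmd11 became -0.0023 (adjusted p = 0.991). Psmd3, Psmd6, Psmd7 and Psmd8 were not called.

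The 7 assembly chaperones held the largest rise and 2 of the falls among the members. Psmg1 and Psmg2 form a heterodimer that guides assembly of the alpha ring. Psmg1 signals at 48 h were 7505, 7189, 7560.3, 8228 and 7104 in DMSO, 8249.9, 7504, 6651, 7369 and 8095 at 60 uM, and 11077, 11318, 13214, 10676 and 12249 at 1000 uM. The 1000 uM cultures lay above every other culture, while the 60 uM and DMSO cultures overlapped. The log2 change was 0.01 ± 0.07 (adjusted p = 0.969) at 60 uM and 0.64 ± 0.07 (adjusted p = 5.89e-09) at 1000 uM, which is 1.55-fold. At 24 h the signals were 8217, 7542, 8737, 7067 and 7185 in DMSO, 8695, 7413, 6896, 8613 and 8753 at 60 uM, and 10332, 9181, 9992, 9844 and 9559 at 1000 uM. The 1000 uM cultures again lay above all others, with a change of 0.34 ± 0.07 (adjusted p = 3e-04).

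Psmg2 went the other way from its partner. Its signals at 48 h were 4756, 4496, 4402, 4909 and 5158 in DMSO, 4361, 4192, 4259.6, 4208 and 4608 at 60 uM, and 3431, 3492, 3832, 3519 and 3494 at 1000 uM. All 1000 uM cultures lay below all others. The change was -0.13 ± 0.06 (adjusted p = 0.173) at 60 uM and -0.42 ± 0.06 (adjusted p = 3.31e-07) at 1000 uM, or 1.33-fold lower. At 24 h the signals were 4559, 3720.1, 4120.1, 4407 and 3814 at 1000 uM, against 4233, 4481, 4759, 4496 and 4907 in DMSO. They overlapped, and the change was -0.15 ± 0.06 (adjusted p = 0.0421), which turned to 0.08 with spike-in scaling and was kept under 6 of 17 alternatives. Psmd5, a chaperone of the ATPase ring, was lower in all 1000 uM cultures than in all DMSO cultures, at 8043 to 9268 against 9355 to 11402 at 24 h and 8039.8 to 9066 against 9091 to 11136 at 48 h. It fell by 0.25 ± 0.06 (adjusted p = 0.000541) at 24 h and 0.25 ± 0.06 (adjusted p = 0.000566) at 48 h, and both calls were lost with spike-in scaling (-0.02 and -0.10). Psmg3, Psmg4, Psmd9 and Psmd10 were not called against DMSO at either dose or time. Another Psmd9 probe set was not called against DMSO either, at 0.45 ± 0.23 (adjusted p = 0.126) at 1000 uM at 48 h. It was higher at 1000 uM than at 60 uM at 48 h, by 0.73 ± 0.23 (adjusted p = 0.0172). The brightest Psmd9 probe set read 0.00017 there and was not called.

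Among the 4 activators or inhibitors, 2 rose at each time at 1000 uM and 0 fell. Psme1 and Psme2 form the interferon-inducible activator cap of the core. Psme2 signals at 48 h were 11816, 10680.4, 11640.4, 11438 and 11346 in DMSO, 12939, 12610.4, 11927, 11879 and 13039.6 at 60 uM, and 14409.8, 14224, 14424, 13550.1 and 13361 at 1000 uM. The 3 doses did not overlap, and the log2 change was 0.13 ± 0.05 (adjusted p = 0.0855) at 60 uM and 0.30 ± 0.05 (adjusted p = 5.01e-06) at 1000 uM. At 24 h they were 12178, 11576, 11057, 11484 and 10536 at 1000 uM, against 10641, 11111, 11241, 10309 and 10729 in DMSO. These overlapped, with a change of 0.07 ± 0.05 (adjusted p = 0.292). Its partner Psme1 read 19487, 20521, 20321, 20675 and 20502 at 1000 uM, against 18820.1, 18205, 18018, 19337 and 20429 in DMSO at 48 h. The change was 0.10 ± 0.04 (adjusted p = 0.0619), with a 95% interval of 0.01 to 0.19. At 24 h Psme1 read 16808, 16461, 17623, 16998 and 16207 at 1000 uM, against 16555, 17598, 18828, 16540.4 and 17099 in DMSO, a change of -0.04 ± 0.04 (adjusted p = 0.528).

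Psme4 encodes a large single-chain activator. Its signals at 48 h were 7506, 7464, 7254, 7775 and 6962 in DMSO, 8582, 8459, 8119, 8160.4 and 8168 at 60 uM, and 10709, 8999, 9568, 9135 and 10862 at 1000 uM. The 3 doses did not overlap, and the change was 0.17 ± 0.06 (adjusted p = 0.0915) at 60 uM and 0.41 ± 0.06 (adjusted p = 1.51e-06) at 1000 uM (1.33-fold). The other 2 probe sets of the gene also rose at 48 h, by 0.65 ± 0.10 and 0.36 ± 0.08, and the first of them also passed at 60 uM, at 0.30 ± 0.10 (adjusted p = 0.0411). At 24 h the signals were 8632, 8188, 7880.5, 9505 and 9035 at 1000 uM, against 7832, 7106, 6679, 8529.6 and 8604 in DMSO. They overlapped, with a change of 0.16 ± 0.06 (adjusted p = 0.0452). The other probe sets read 0.15 ± 0.10, about the same size, and -0.0027 ± 0.075, and neither passed. The call was lost under 10 of 17 alternatives, among them quantile normalization, no filter and no intensity trend. Psmf1, named as an inhibitor of the core, read at 24 h 7980.1, 7939, 7854, 7473 and 7564 at 1000 uM, against 6687, 6438, 7195, 7376 and 7086 in DMSO. All 1000 uM cultures were above DMSO, with a change of 0.16 ± 0.04 (adjusted p = 0.00584). At 48 h it read 7638, 7471, 7092, 7359 and 7234 at 1000 uM, against 6728, 6709.6, 6915, 6589 and 7694 in DMSO. The ranges overlapped, and the change was 0.09 ± 0.04 (adjusted p = 0.118).

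Directly between the doses, 1000 uM against 60 uM, 3 of 44 genes were higher and 2 lower at 24 h (background 7.5% and 10.4%), and 12 were higher and 3 lower at 48 h (background 10% and 15.3%). Among the 2295 bright probe sets, 17.1% were higher and 21.2% lower at 24 h, and 27% higher and 26% lower at 48 h. The 33 bright members gave 3 higher and 1 lower at 24 h, and 12 higher and 1 lower at 48 h. Psmb10 and Psmg2 are dimmer and not among these 33. The higher genes at 24 h were Psmg1, Psmb5 and Psma4, and the lower ones Psmb10 and Psmd5. The Psmb5 call at 24 h was lost under 9 of 17 alternatives, and spike-in scaling ended every lower call between the doses, Psmb10 and Psmd5 at both times and Psmg2 at 48 h. At 48 h Psmg1 was higher at 1000 uM by 0.63 ± 0.07 (adjusted p = 1.74e-08), Psmb5 by 0.27 ± 0.06 (adjusted p = 0.00128), Psme4 by 0.24 ± 0.06 (adjusted p = 0.00276) and Psmb7 by 0.23 ± 0.04 (adjusted p = 8.32e-05), and Psmg2 was lower by 0.28 ± 0.06 (adjusted p = 0.00023). The core rings gave 7 of the 12 higher genes (7 of 13 measured), the regulatory particle 2 (of 17), the activators 2 and the chaperones 1. The group means ran upward from DMSO through 60 uM to 1000 uM for 24 of 44 genes (54.5%) at each time, beside 21.6% of all probe sets at 24 h and 25.8% at 48 h. They ran downward for 7 genes (15.9%) at 24 h and 6 (13.6%) at 48 h, beside 32.8% and 34%. These orders are descriptions and carry no test.

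Time alone moved few members. In DMSO, 48 h against 24 h, 0 of 44 genes were higher and 1, Psmd9, lower (background 3.88% and 3.07%; 4 higher and 2 lower at an unadjusted p under 0.05), by 0.23 ± 0.07 (adjusted p = 0.0419). That call was lost under 14 of 17 alternatives, median and spike-in scaling among them. With spike-in scaling the log2 differences were above 0 for 43 of 44 genes, with 5 higher and 0 lower. All probe sets moved likewise, with 8.75% higher and 0.58% lower, and a median of 0.16 beside 0.14 for the 44 genes. The effect of 60 uM did not pass as different between 48 and 24 h for any of the 44 (background 0.0376% higher and 0.0483% lower, by limma), with 0 larger and 2 smaller at 48 h at an unadjusted p under 0.05. The effect of 1000 uM was larger at 48 h than at 24 h for 1 gene, Psme2, by 0.23 ± 0.07 (adjusted p = 0.0314), and lower for 1, Psmg2, by 0.26 ± 0.08 (adjusted p = 0.0361), against a background of 4.17% and 4.12%. Neither call held under median centring, quantile normalization or spike-in scaling. For Psmg1 the difference of effects was 0.30 ± 0.10 (adjusted p = 0.0635). For Psme4 it was 0.25 ± 0.09 (adjusted p = 0.0739) in the brightest probe set, while the other 2 passed at 0.50 ± 0.14 and 0.36 ± 0.11. For Psmd14 it was -0.26 ± 0.10 (adjusted p = 0.137). The 48 and 24 h comparisons use separate cultures. At 1000 uM, 14 genes rose at both times, 3 fell at both (Psmb10, Psmd5 and Psmg2) and 0 changed direction. A further 2 rose and 2 fell at 48 h only, and 7 rose at 24 h only. Across the 44 genes the changes at the 2 times had a correlation of 0.82, beside 0.75 over all probe sets. Genes are not independent replicates, so this is a description.

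**Figure D4:**
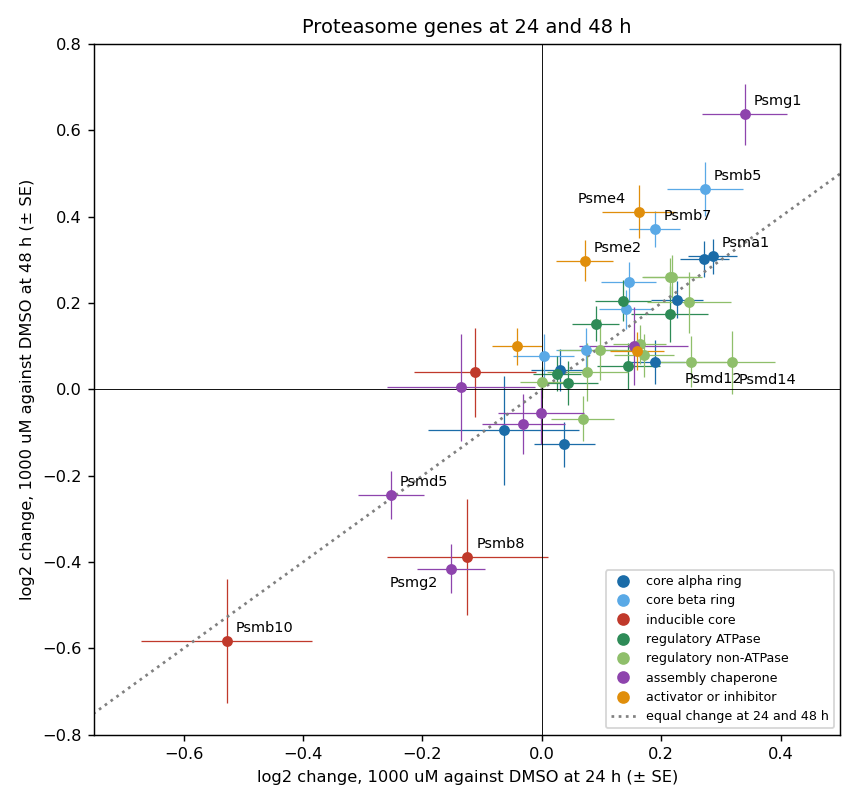
Log2 change at 1000 uM against DMSO at 24 h (horizontal) and 48 h (vertical), ± SE of the limma fit, for the 44 proteasome genes coloured by class. The dotted line marks equal changes. Psmg1, Psmb5, Psmb7, Psme4 and Psme2 lie above it, and Psmg2 and Psmb8 below it with negative values. Only Psme2 and Psmg2 passed the test of the difference.

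Partners of the proteasome were called in both directions, at shares near the background at 48 h. Of 32 genes listed (regulators of proteasome gene expression, ubiquitin shuttles, nuclear import factors and associated enzymes), 26 were tested, and at 1000 uM 6 rose and 4 fell at 24 h, and 4 rose and 7 fell at 48 h. These are 23.1% higher and 15.4% lower at 24 h, beside 11.5% and 17.4% of all probe sets, and 15.4% higher and 26.9% lower at 48 h, beside 15.2% and 22.7%. The median change was -0.0097 at 24 h and -0.0019 at 48 h. Nfe2l1 rose at 24 h by 0.20 ± 0.07 (adjusted p = 0.0263) and was not called at 48 h, at 0.14 ± 0.07 (adjusted p = 0.109). Ngly1, the glycanase that processes the Nfe2l1 protein, rose by 0.28 ± 0.04 (adjusted p = 3.84e-07) at 24 h and 0.48 ± 0.04 (adjusted p = 2.52e-12) at 48 h. Ddi2, the protease that cleaves it, was not called, at -0.02 ± 0.08 and 0.02 ± 0.08. Nfe2l2, the regulator of antioxidant genes, had mean signals at 48 h of 9562 ± 524 in DMSO, 8964 ± 249 at 60 uM and 5789 ± 121 at 1000 uM (SD, n = 5 each). It fell by 0.30 ± 0.04 (adjusted p = 1.08e-06) at 24 h and 0.72 ± 0.04 (adjusted p = 1.6e-15) at 48 h. The ubiquitin shuttle Ubqln1 rose at both times, by 0.40 ± 0.05 and 0.14 ± 0.05, and its relative Ubqln2 fell at both, by 0.36 ± 0.05 and 0.39 ± 0.05. Akirin2 and Ipo9, which bring proteasomes into the nucleus, were lower at 48 h by 0.62 ± 0.15 (adjusted p = 0.000857) and 0.35 ± 0.07 (adjusted p = 7.29e-05). Pomp and Sem1, an assembly factor of the core and a subunit of the regulatory particle named outside the Psm pattern, were not called at either time.

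**Figure D5:**
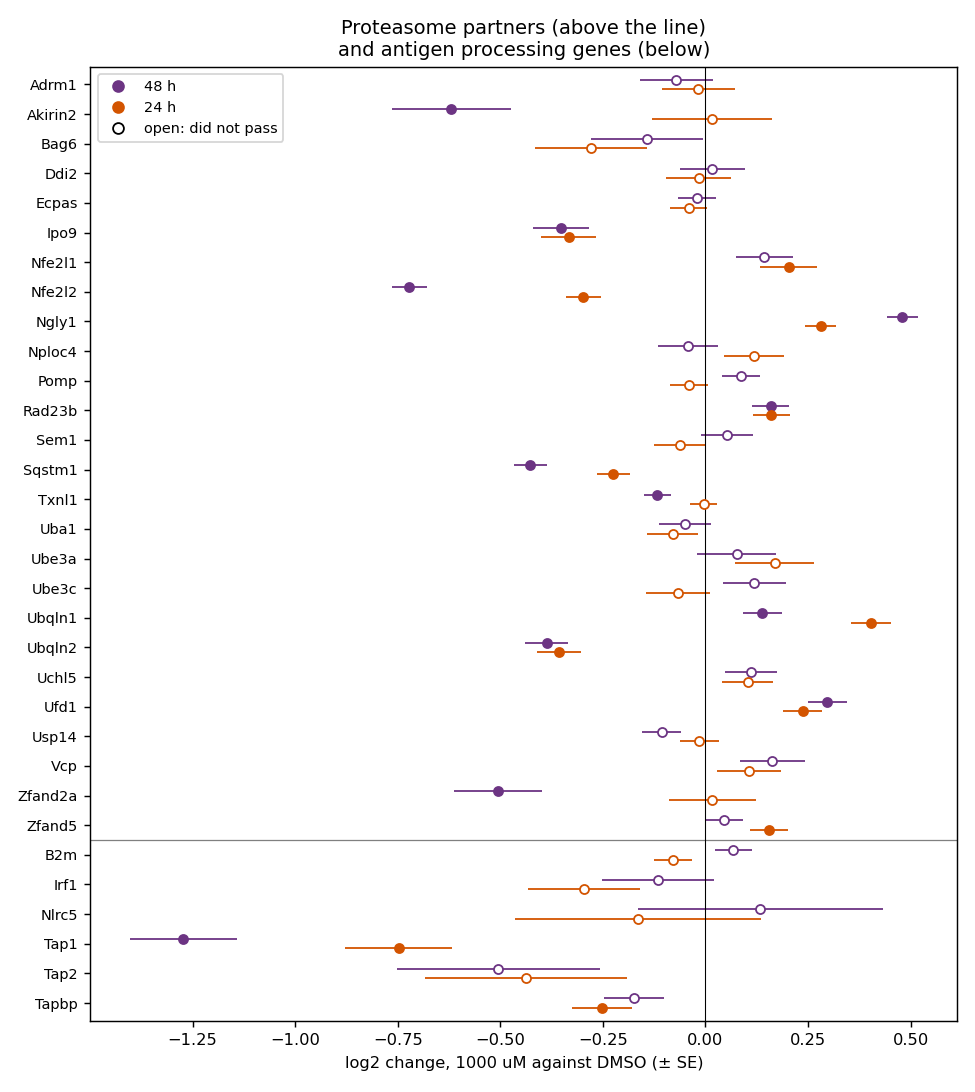
Log2 change at 1000 uM against DMSO (horizontal axis, ± SE of the limma fit) at 48 h and 24 h for 26 proteasome partners (above the line) and 6 antigen processing genes (below). Filled symbols passed at an adjusted p under 0.05. At 48 h, 4 partners rose and 7 fell, and Tap1 fell by 1.27.

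The direction of small changes depends on how arrays are scaled. MAS5 sets the same mean signal on every array, and scaling to the poly-A spike-in controls instead moved the median of all probe sets at 1000 uM to 0.18 at 24 h and 0.11 at 48 h. The median of the 44 genes minus that of all probe sets was 0.17 at 24 h and 0.13 at 48 h in MAS5 signals. Median and spike-in scaling shift every probe set of an array alike and cannot change this difference. With quantile normalization, which can, it was 0.10 and 0.07.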

How the data were processed

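Total RNA of 30 cultures was labelled as biotin cRNA and hybridised to 1 Affymetrix rat array each, per the labels' protocols. The deposited values are MAS5 signal intensity per probe set on a linear scale, made by the authors, per the submitters' processing notes (no version is stated there). Every array had the same trimmed mean signal (1499.99 without the outer 2% of values at each end), which hides any change in RNA per cell. Signals were taken to log2 with no constant added. Probe sets in the brighter part of the array (mean log2 over the 40th percentile, 8.00) entered 1 limma fit over all 30 arrays (limma 3.58.1, R 4.3.3, moderated variances with an intensity trend), with 6 group means and 9 comparisons. Adjusted p-values are limma's with Benjamini-Hochberg adjustment within a comparison. The fit was tested on simulated data. Groups came from the labels, and every array was used. The labels number no replicates, so replicate numbers follow the sample order. Symbols came from the platform's gene table, and all 60 member probe sets were matched to GRCr8 gene identifiers. The background floor was the brightest of the bacterial TrpnX controls. Every member may be named. Signals per culture are given for up to 4 called members with the largest changes at each dose and time and for all inducible core, activator and inhibitor genes. The members, lists and tests were chosen with earlier results of these data known. Alternatives were median, quantile and spike-in scaling, no filter, averaged probe sets, no intensity trend, leaving out each array and, added after the data were seen, a block of the 5 sets in which the title numbers pass through the groups.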

Additional observations from a re-analysis of the deposited data

Results flagged for a closer look

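In 4 of the 84 groups of 5 cultures that were checked (14 genes, 6 groups), 1 culture stood apart from the others of its group by Dixon's test, and chance alone would mark about 1 group in 20. Psmb7 at 1000 uM for 48 h was lowest in replicate 5, at 14298, with the next culture at 15547. Psmb10 at 60 uM for 24 h was lowest in replicate 3, at 1026, with the next at 1329. Psmd14 in DMSO for 48 h was highest in replicate 3, at 15626, with the next at 13383. Psmg2 at 1000 uM for 48 h was highest in replicate 3, at 3832, with the next at 3519. The difference between the 1000 uM effects at 48 and 24 h passed for Psmg2, at -0.26 (adjusted p = 0.0361), and for Psme2, at 0.23 (adjusted p = 0.0314).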

How the results depend on the processing

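Of 73 gene calls over all comparisons, 41 held under every alternative, 48 held under every scaling, and 4 changed sign under 1 alternative each. With spike-in scaling Psmg2 at 1000 uM at 24 h became 0.082 and Psma3 at 48 h became 0.022. With all probe sets of a gene averaged, Psmd11 at 24 h became -0.0023 and Psmc4 at 48 h became -0.21, each average including a probe set below the filter. Counts of 44 that moved by more than 1.5 times follow. Spike-in scaling gave 34 higher and 0 lower at 1000 uM at 24 h, 2 lower at 48 h, 1 higher at 60 uM at 24 h and 0 at 48 h, 0 lower between the doses at either time, and 5 higher and 0 lower for DMSO 48 h against 24 h. With this scaling 23.6% of all probe sets were higher and 4.85% lower at 1000 uM at 24 h. For DMSO over time, 8.75% of all probe sets were higher and 0.58% lower. Median centring gave 8 higher at 60 uM at 24 h, 3 lower at 1000 uM at 48 h, 5 higher and 1 lower between the doses at 24 h, and 0 lower for DMSO over time. Quantile normalization gave 1 higher for DMSO over time. Without the filter, 1 gene was higher at 60 uM at 24 h, and without the intensity trend 1 was higher at 60 uM at each time; DMSO over time gave 0 lower with either, and 0 lower with averaged probe sets. The difference of 1000 uM effects gave 0 higher with median, spike-in or no trend and 2 with averaged probe sets, and 0 lower with median, spike-in, quantile, no filter or no trend.

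With single arrays left out, counts ranged over 1 to 4 higher at 60 uM at 24 h, 0 to 4 at 48 h, 17 to 21 higher and 2 to 3 lower at 1000 uM at 24 h, 14 to 19 higher and 3 to 5 lower at 48 h, 2 to 5 higher and 1 to 2 lower between the doses at 24 h, 12 to 14 higher and 2 to 4 lower at 48 h, 0 to 1 in each direction for DMSO over time, and 0 to 2 higher and 0 to 1 lower for the difference of 1000 uM effects. The 0 at 60 uM at 48 h came without DMSO replicate 1, and the 3 lower at 1000 uM at 48 h without 1000 uM replicate 5. The cause of these moves was not tested. Counts of lower genes at 60 uM were 0 throughout. For the fits with an array left out, the share of all probe sets called was not computed. The titles carry a running number that passes through the 6 groups 5 times, and a replicate block of these 5 sets was added after the data were seen. It gave 5 higher at 60 uM at 24 h, against 3.65% of all probe sets, and 0 lower for DMSO over time, against 3.31%. No other count moved by more than 1.5 times. Deviations of arrays of a set had a mean correlation of 0.0096 over 75 pairs, 1 of them over 0.1. Between arrays of different sets and groups it was -0.0024. In all, 11 of 30 arrays were closest to their own set, among them 4 of 6 in set 2 and 4 of 6 in set 5. Actin 3'/5' ratios were 2.43 to 2.72 in set 2 and 2.25 to 2.39 in set 5. Whether the numbers pair the cultures was not settled, and the main fit does not use them. Mean actin 3'/5' ratios of the sets were 2.33 to 2.56.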
